A study of Mus musculus with 2 samples.

Results

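The stretch of mouse chromosome 8 around Maf was examined in macrophages that had been grown in culture from bone marrow precursors. Its members were the non-control probes that the array design places between 108 and 128 Mb on chromosome 8 of build mm9, with the probes named Maf left out. The rule used position and name, and no measured value. It took 665 of 55681 probes, against 2183 on the rest of chromosome 8. The members carried 375 names. Of their probes, 309 belonged to 228 official gene symbols, 272 to 67 long intergenic non-coding RNA (lincRNA) loci named by their coordinates, and 84 to clones or predicted genes. The label held for the positions, since the probes named Maf lay inside the stretch, centred on position 118217534.

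The 2 groups were c-Maf+/- and c-Maf-/- macrophages, with 1 array each. Both kinds of cell had spent 5 days in M-CSF, supplied as medium of the CMG14-12 cell line, and had then been given lipopolysaccharide (LPS, a bacterial cell wall component) at 100 ng/ml for 5 h. The control cells therefore carried 1 disrupted copy of the gene and had been stimulated as well. The labels state no strain, age or sex, no deleted segment of Maf, and nothing on pooling of animals. Since a genotype had a single array, the genotypes could not be tested against each other, and each difference given is one between 2 arrays.

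Maf encodes c-Maf, a basic leucine zipper transcription factor that binds Maf recognition elements, whose core reads TGCTGAC, and that is known for driving Il10 in macrophages. The gene stands in a gene-poor stretch, with Wwox, a large gene over a common fragile site, on its side of lower coordinates. The neighbours of a deleted gene are examined because regulatory elements can serve more than the nearest gene and because flanking chromosome is inherited with the disrupted allele. The question put to the region was whether transcripts at any distance from Maf differed between the genotypes.

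The sequences below belong to the probes that differed most. The first is the opening 30 bases of the probe for CB193388, an expressed sequence tag between the probes named Maf, on the minus strand of mm9 at chr8:118225329-118225388. The next 3 are minus-strand lincRNA probes that passed the background flag in c-Maf-/- alone, and they are shown so that they can be searched.
CB193388: agcgctttcagacacgagagacttcagaag
lincRNA probe at chr8:119732412-119732471: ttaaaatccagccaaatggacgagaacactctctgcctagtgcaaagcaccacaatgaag
lincRNA probe at chr8:122787789-122787848: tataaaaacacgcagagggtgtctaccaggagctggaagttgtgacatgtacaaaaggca
lincRNA probe at chr8:124684059-124684118: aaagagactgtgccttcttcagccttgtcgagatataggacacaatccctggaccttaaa

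The values are the deposited processed spot intensities, called signals here. For differences, log2 of each signal was taken and the array's own 75th percentile subtracted, so that a difference of 1 is 2-fold and a positive value is higher in c-Maf-/-. A probe was called measured when its spots carried the scanner software's flag for well above background on each array. The flag was on 45.3% of non-control spots in c-Maf+/- and 44.9% in c-Maf-/-, and 0 spots were saturated. Spot error came from 222 probes spotted at least 8 times, whose differences had a median SD of 0.07. The median SD was 0.27 for the 30 of these with mean signals under 100 and 0.04 for the 112 with signals of at least 1000. It covers spots on these arrays, and the spread between animals or cultures was not measured. Macrophage markers were present, with 11 of 12 measured and a median difference of 0.05, and Cd163 was not measured. Scaling to the 8 spike-in transcripts, which differed by a mean of -0.15, put the median of all measured probes at 0.12, so differences between -0.15 and 0 change sign with that scaling.

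Of the members, 315 (47.4%) were measured, against 40.8% on the rest of chromosome 8. A further 22 carried the flag in c-Maf+/- only and 18 in c-Maf-/- only, and 310 on neither array. Over all probes flagged on at least 1 array, 6.23% and 5.42% were of these kinds. Of the 315, 313 rested on 1 spot per array. As a whole the region showed no shift: its median difference was -0.01 (SD 0.39 over 315 probes), with 155 above 0 and 160 below. The rest of chromosome 8 had a median of -0.02 (SD 0.40). The quartiles of the region were -0.17 and 0.18. Most probes therefore lay close to equal signals on both arrays. At 2-fold, 11 of the 315 probes (3.49%) were higher in c-Maf-/-, where 1.35% of all measured probes and 2.02% of those on the rest of chromosome 8 were. Only 3 (0.952%) were lower, where 1.46% of all measured probes and 1.35% of the rest of chromosome 8 were. With spike-in scaling the split was 14 higher and 1 lower, where 2.07% and 0.966% of all measured probes were.

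**Figure D1:**
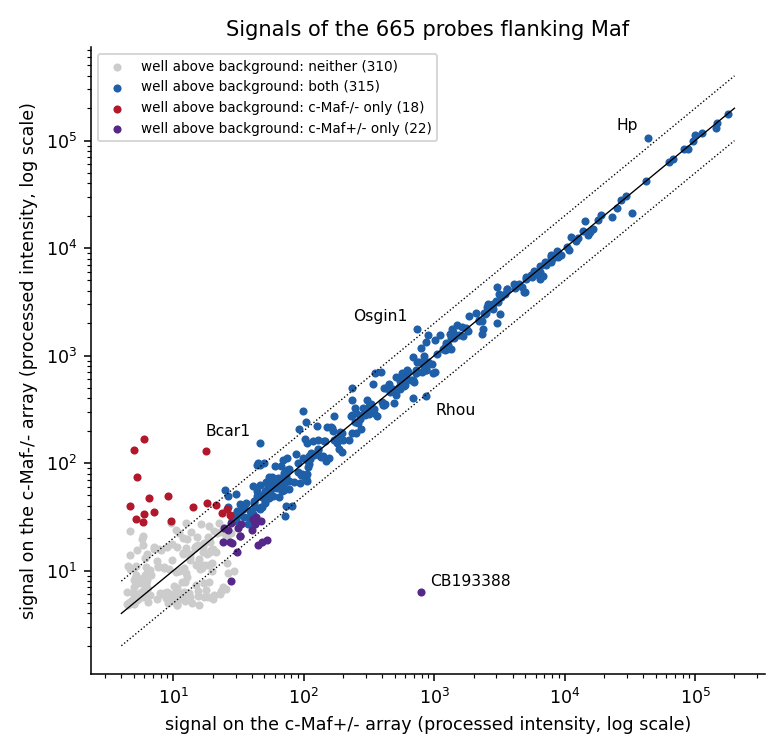
Signals of all 665 members on the c-Maf+/- array (x) and the c-Maf-/- array (y), both in processed intensity on log scales, with the line of equal signals and dotted lines at 2-fold. Measured probes follow the line, Hp stands above it at the bright end, and CB193388 stands alone at 788 against 6.38.

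At the Maf locus itself the member CB193388 had the largest bound toward lower signal. Its signal was 788 in c-Maf+/- and 6.38 in c-Maf-/-, where it was not well above background. Set against the lowest signal well above background on that array, it was at least 33.2-fold lower in c-Maf-/-. The Maf probes around it went the same way, from 541 to 5.96 for the lower one and from 15101 to 12.6 for the upper one. The tag lay 2.35 kb from the upper Maf probe and 17.997 kb from the lower one, on the strand of both. Whether it is part of the Maf transcript was not tested, and no mm9 annotation was used here.

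Next to the locus, little was measured. The clone 4930509E22Rik at 118295804 had signals of 30.8 and 14.8 and carried the flag in c-Maf+/- only. The lincRNA probes that start at 118437954 and 118438014 were not well above background on either array, with signals from 17.1 to 25.1 in c-Maf+/- and from 6.70 to 7.62 in c-Maf-/-. No ratio is given for them. Of 16 named genes on a list of neighbours, 9 were measured. The list was not complete: it left out Cmip (0.08), Plcg2 (0.31) and Sdr42e1 (0.18). Those genes were measured and lay nearer to Maf than Mon1b, which it held. The metalloproteinase gene Adamts18, Syce1l, Vat1l, Clec3a, Dynlrb2, Cenpn and Bco1 were not.

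The list of neighbours had a median of -0.03, with 4 genes above 0 and 5 below, beside a median of -0.01 over all names measured in the region. With spike-in scaling its median was 0.11 and 7 genes were above 0. No gene of the list reached 2-fold. Nudt7, which encodes a peroxisomal hydrolase of coenzyme A, stood highest. Its probe that starts at 116660355 read 92.1 and 206, a difference of 1.13, and the one at 116676071 read 394 and 704, a difference of 0.81. Both probes were higher in c-Maf-/-, with a mean of 0.97 (SD 0.23 over 2 probes).

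Wwox, a tumour suppressor with an oxidoreductase domain, was dim at each of its 4 measured probes. The signals ran from 46.5 to 118 in c-Maf+/- and from 61.9 to 161 in c-Maf-/-. Its mean difference of 0.21 (SD 0.25 over 4 probes) was smaller than the spread between its probes, and 1 of the 4 lay below 0 at -0.13. Atmin, a cofactor of the ATM kinase, read 901 and 1546, a difference of 0.75 on 1 probe. Of the others, Mon1b (0.02), a vesicle-fusion regulator, Cmc2 (-0.03), a mitochondrial assembly factor, and Pkd1l2 (-0.08) were within 0.1 of equal. Gcsh, a subunit of the glycine cleavage system, gave -0.36 and -0.35 on its measured probes, and Cdyl2 is described with its lincRNA locus.

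By distance, the medians of 10 of the 11 bins of 2 Mb lay between -0.06 and 0.09. Counted from Maf toward lower coordinates, the bins held 6, 14, 34, 12, 62 and 7 measured probes. Their medians were 0.40, -0.06, -0.02, 0.02, -0.01 and -0.03. Toward higher coordinates the bins held 36, 9, 47, 56 and 32 probes, with medians of -0.01, 0.09, -0.05, -0.00 and 0.05. The bin at 0.40 was thin and held only the 2 probes of Nudt7 and 4 of Wwox, 5 of the 6 above 0.

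**Figure D2:**
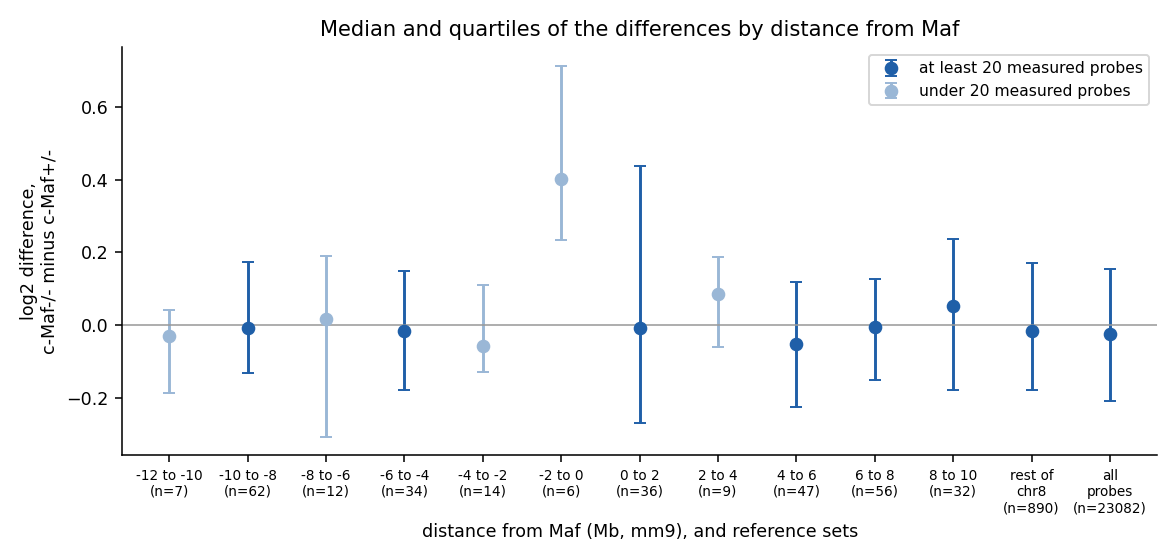
Median log2 difference (points) and quartiles (bars) of measured probes by distance from Maf in bins of 2 Mb, beside the rest of chromosome 8 and all probes; pale points mark bins with under 20 probes. The medians stay near 0 apart from the bin just below Maf, at 0.40 from 6 probes.

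With both sides of Maf pooled, the size of the differences, whatever their sign, was largest near the gene. Within 2 Mb of Maf the median absolute difference was 0.32 (42 probes). It was 0.14 from 2 to 4 Mb (23 probes), 0.18 from 4 to 6 Mb (81) and 0.16 from 6 to 8 Mb (68). Farther out it was 0.17 from 8 to 10 Mb (94) and 0.08 from 10 to 12 Mb (7). On the side of lower coordinates alone, the thin bin from 6 to 8 Mb had 0.27 (12 probes). Over all 315 probes, absolute difference and distance had a Spearman correlation of -0.08, against -0.31 with mean signal, the dim probes having the larger differences. The probes share their arrays and many share a transcript, so no p is given. The bin from 0 to 2 Mb above Maf held 2 clusters of lincRNA loci, 1 below Cmip and 1 beside Cdyl2. The 13 measured probes of the cluster below Cmip had a median of 0.51. The other 23 probes of the bin, 10 of them in the cluster beside Cdyl2, had a median of -0.11 and a median absolute difference of 0.24.

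Both sides of Maf had medians near 0. Below it, 135 measured probes had a median of -0.01, with 5 (3.70%) at least 2-fold higher and 1 (0.741%) lower. Above it, 180 had a median of 0.01, with 6 (3.33%) higher and 2 (1.11%) lower. Over all measured probes 1.35% were higher and 1.46% lower. At the ends of the window, the last 1 Mb inside it had medians of -0.03 (41 probes) and 0.17 (16), and the first 1 Mb beyond it 0.05 (18) and -0.16 (11).

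**Figure D3:**
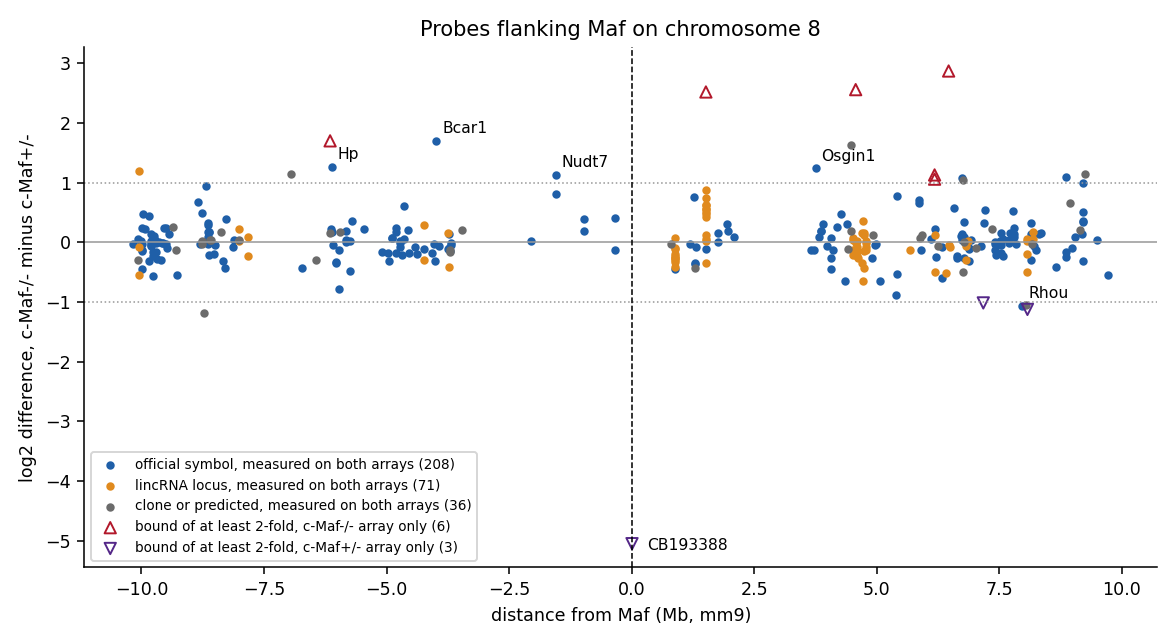
Log2 difference of each measured member by its distance from Maf in Mb, coloured by kind of name, with triangles for members that were well above background on 1 array and whose bound was at least 2-fold; dotted lines mark 2-fold. Differences past 2-fold are scattered over the stretch, and CB193388 sits at the position of Maf with a bound of -5.05.

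Of the 11 probes at least 2-fold higher, 7 had signals under 100 on the dimmer array, as did 2 of the 3 lower ones and 93 of all 315. The 11 carried 11 names spread over the window. Among probes with an official symbol 6 were higher and 1 lower, where 1.37% and 1.61% of all such probes were. At 1.5-fold, 25 members were higher and 9 lower, where 4.94% and 6.19% of all probes were.

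Hp was the brightest of them. It encodes haptoglobin, the acute-phase protein that binds free haemoglobin and that neutrophils also store in granules. Its signal was 43224 in c-Maf+/- and 105196 in c-Maf-/-, a 2.39-fold difference (1.26) on 1 probe at 112099045. It stayed past 2-fold under all 8 other settings of scaling, background and filter, though the filters cannot change a probe's value. The genes beside it on the chromosome did not share this, with Txnl4b at 0.18 and Dhx38 at 0.23. Most neutrophil markers were lower: 13 of 15 were measured, 11 of them below 0, while Csf3r (0.13) and Mmp8 (0.46) were above. Of the 11, Elane (-0.03) and Mmp9 (-0.06) lay in the range that changes sign with spike-in scaling. The summed signal was 126937 in c-Maf+/- and 85186 in c-Maf-/-, most of it from S100a9, S100a8 and Csf3r. Retnlg and Cxcr2 were not measured. The part of these cells in the Hp value was not tested, and in bulk RNA fewer cells of a type and less RNA per cell cannot be told apart.

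Osgin1, a growth inhibitor induced by oxidative stress, read 736 and 1764, a 2.36-fold difference (1.24), and also held under all 8 settings. Nqo1, a quinone reductase gene that shares the stress-response factor NRF2 with Osgin1, went the other way, from 221 to 166 (-0.44). Of 5 redox genes on a list, all 5 were measured, 3 above 0 and 2 below, with a median of 0.09, and 4 were above 0 with spike-in scaling. Cyba, the p22phox subunit of the phagocyte oxidase, was near equal at 0.09 (SD 0.08 over 2 probes) and bright, with mean signals of 37085 and 40051.

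Bcar1, the focal adhesion adaptor p130Cas, had the highest difference of any measured member. It read 46.4 and 152 (1.69), and 0.95 with another background correction (normexp). Mvd, an enzyme of the mevalonate pathway to cholesterol, read 233 and 502 (1.08). Of 24 mitochondrial and metabolic genes, 17 were measured and Mvd alone was past 2-fold. The median of the list was -0.05 with 6 above 0, and 0.09 with 15 above 0 under spike-in scaling.

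Agt, the angiotensin precursor, was dim, with signals of 44.0 and 96.0 (1.10). Egln1, a prolyl hydroxylase that marks the hypoxia factor HIF for destruction, missed the threshold by the smallest margin, at 49.2 and 100.1. Its neighbour Sprtn, a protease of DNA-protein crosslinks with a probe 4.77 kb away, gave -0.32 and 0.50 on its own probes. Sntb2, a syntrophin of the dystrophin complex, read 350 and 688 (0.95). Fbxo31, which recruits targets to a ubiquitin ligase, had a mean of 0.68 over 2 probes of the same arrays (SD 0.04), and 0.58 with normexp.

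The other higher probes were clones, predicted genes or a lincRNA. 6430548M08Rik read 98.1 and 307 (1.62) at 122686729, but a brighter probe close by, at 122686414, read 2577 and 2988 (0.19). 9330133O14Rik gave 1.04 on 1 probe and -0.49 on the other, 12.5 kb above the Mvd probe. In both clones the probes of 1 name spread beyond the 95th percentile of the SD over 59 names with several probes (0.61). D8Ertd158e (1.15), C80012 (1.15) and the lincRNA probe at 108158223 (1.19) had c-Maf+/- signals of 44.4, 25.1 and 105.

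Among the lower probes, Rhou was the only one with an official symbol. It encodes an atypical small GTPase of actin and adhesion control, and read 864 and 421 (-1.06). The difference was -0.91 with spike-in scaling. Of the others, 4732419C18Rik (80.8 and 39.8, -1.05) lay 83.3 kb above the Rhou probe, and LOC102640236, 104 kb above it, was well above background in c-Maf+/- only, at 51.9 against 19.4. The lincRNA loci in between had 4 of 17 probes measured, 2 above 0 and 2 below, from -0.50 to 0.05. The remaining lower probe, for 2900057C01Rik, read 72.4 and 32.5 (-1.18).

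**Figure D4:**
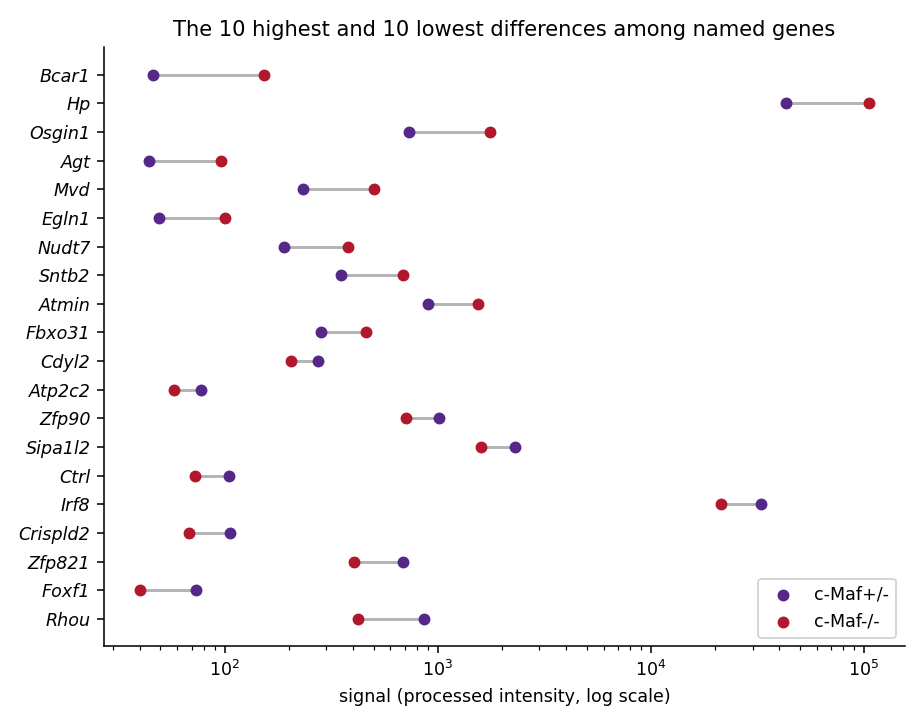
Signals on both arrays (processed intensity, log scale) for the 10 highest and 10 lowest official gene symbols by log2 difference, as geometric means over a gene's measured probes. Hp and Irf8 are the bright genes among them, and Bcar1, Agt, Egln1, Foxf1 and Atp2c2 lie under 100 in c-Maf+/-.

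Irf8, a transcription factor that steers myeloid progenitors toward monocytes and dendritic cells, was the brightest gene with a difference below -0.5. Its signal was 32988 in c-Maf+/- and 21434 in c-Maf-/-, a difference of -0.65 on 1 probe. That is 1.57-fold, short of the threshold, at a brightness where repeated spots had a median SD of 0.04. Dendritic-cell markers were measured for 8 of 11 genes, 6 of them below 0. Their summed signal was 44737 and 46576, most of it Siglech, and Cd209a, Xcr1 and Clec9a were not measured. Their part in the Irf8 value was not tested.

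The list of myeloid and immune genes had 8 of 11 members measured, 3 above 0 and 5 below under every scaling, and a median of -0.23 (-0.08 with spike-in scaling). Plcg2, the phospholipase downstream of immune receptors, was higher, at 14206 and 17890 (0.31). Mlkl, the executor of necroptosis, was slightly lower, at 15006 and 13310 (-0.20). Il34, an alternative ligand of the M-CSF receptor, was dim at 40.7 and 33.4. Il17c, Snai3 and the corepressor gene Cbfa2t3 were not measured. No gene of the list reached 2-fold.

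Further genes on the low side were of mixed roles. Zfp821, a zinc-finger gene, read 685 and 403 (-0.79), and Zfp90, another, read 1018 and 710 (-0.55). In the list of zinc-finger and chromatin genes 9 of 12 were measured, 6 below 0, with a median of -0.25 (-0.11 and 5 below with spike-in scaling). In the same list Ankrd11, a chromatin regulator, was at 0.43 (SD 0.16 over 2 probes). Crispld2, a secreted LPS-binding protein, read 106 and 68.4 (-0.65), and its other probe was well above background in c-Maf+/- only. Foxf1, a forkhead factor of lung mesenchyme, rested on a dim probe at 73.3 and 40.3 (-0.89), and its other probe was not well above background on either array, nor were the probes of Foxc2 and Foxl1. Ctrl (-0.56), a chymotrypsin-like protease gene, Sipa1l2 (-0.55), a Rap GTPase activator, and Atp2c2 (-0.45), a calcium pump of the secretory pathway, completed the 10 lowest genes together with Cdyl2.

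Translation and RNA genes were measured in 13 of 13 cases, 11 above 0 with a median of 0.08, and 10 to 13 above 0 under the other scalings. Exosc6, a subunit of the RNA exosome, was the highest of them, at 863 and 1344 (0.61), and Rpl13 read within 0.01 of equal over its 2 probes. Ubiquitin and autophagy genes were measured in 15 of 15 cases, 9 above 0 with a median of 0.03, and 14 above 0 with a median of 0.17 under spike-in scaling. Of these Usp10, a deubiquitinase, read 1105 and 1568 (0.48). The autophagosome gene Map1lc3b was at -0.14 from 10 spots. Replication and repair genes had a median of -0.00 over 10 of 11, and 0.14 with spike-in scaling. All 5 measured transport and channel genes were below 0 (median -0.27), but 3 were with spike-in scaling. The list of cytoskeleton and cilium genes had 7 of 11 measured, 6 below 0 (median -0.17, or -0.02 with 4 below under spike-in scaling). Without spike-in scaling Bcar1, at 1.69, was the only one above 0. Genes with other roles were also on that list, among them Cog4 (-0.18), Glg1 (-0.18) and Ist1 (-0.33). The cadherin genes Cdh1, Cdh3 and Cdh13 were not well above background on either array. No p is given for any list, whose members were chosen with results of these data known.

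The brightest genes of the region were close to equal. Psmb10, an immunoproteasome subunit, was at -0.17, the actin-binding Cotl1 at -0.13, the respiratory chain gene Cox4i1 at -0.03 and Aprt, a purine salvage enzyme, at -0.12. Piezo1, a mechanosensitive channel, was at -0.27 with signals of 23032 and 19445. Of the 163 official symbols measured, 141 were within 0.5 of equal. Among the 10 brightest, Hp and Irf8 alone differed by more than 0.5.

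Probes of 1 gene did not always point the same way. Of 59 names with at least 2 measured probes, the median SD was 0.15. Mthfsd, a folate enzyme gene, gave 0.77 on one probe (127 and 220) and -0.54 on the other (982 and 687), which lie within 1 kb. Rab4a, an endosomal GTPase, gave 0.33 on a dim probe and -0.30 on a brighter one. Phlpp2, a phosphatase gene of the AKT pathway, gave 0.02 and -0.49 in the same order. Such genes have no single direction here.

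LincRNA loci supplied 272 member probes, of which 71 (26.1%) were measured, with a median of -0.05. Of these 1 was 2-fold higher and 0 were lower, where 1.30% and 1.03% of all measured lincRNA probes were. In the intergenic space below Cmip, whose nearest probe lay 243 kb above the last probe of these loci, loci at 119732348-119749198, 119735533-119736887 and 119739165-119739905 carried 14 plus-strand probes. All 11 measured ones were above 0, from 0.01 to 0.87, with a median of 0.56 (10 of 11 with median scaling or quantile normalization). Their signals were low, from 26.5 to 151 in c-Maf+/- and from 44.3 to 219 in c-Maf-/-. For Cmip the difference was 0.08 (SD 0.11 over 2 probes).

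On the minus strand of the same loci, 2 of 10 probes were measured, at -0.35 and 0.11. Another 2 were well above background in c-Maf-/- only. One of them, whose sequence is given above, read 17.9 and 130, at least 5.72-fold higher, while the probe that starts 60 bases on read 5.03 and 6.25. The other, which starts at 119732590, read 9.58 and 28.8, at least 1.27-fold higher. The 6 remaining probes of this strand were not well above background on either array. A pair of plus-strand probes shared 50 bases, shown in capitals, so that they bind almost the same target.
lincRNA probe at chr8:119739387-119739446: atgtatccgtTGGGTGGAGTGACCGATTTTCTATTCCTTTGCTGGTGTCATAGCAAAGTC
lincRNA probe at chr8:119739397-119739456: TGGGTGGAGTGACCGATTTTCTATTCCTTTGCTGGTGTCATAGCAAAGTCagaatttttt
The first gave 0.06 (41.8 and 44.3) and the second 0.56 (41.0 and 61.5). Near-copies of 1 target thus differed by 0.50 at signals under 100.

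**Figure D5:**
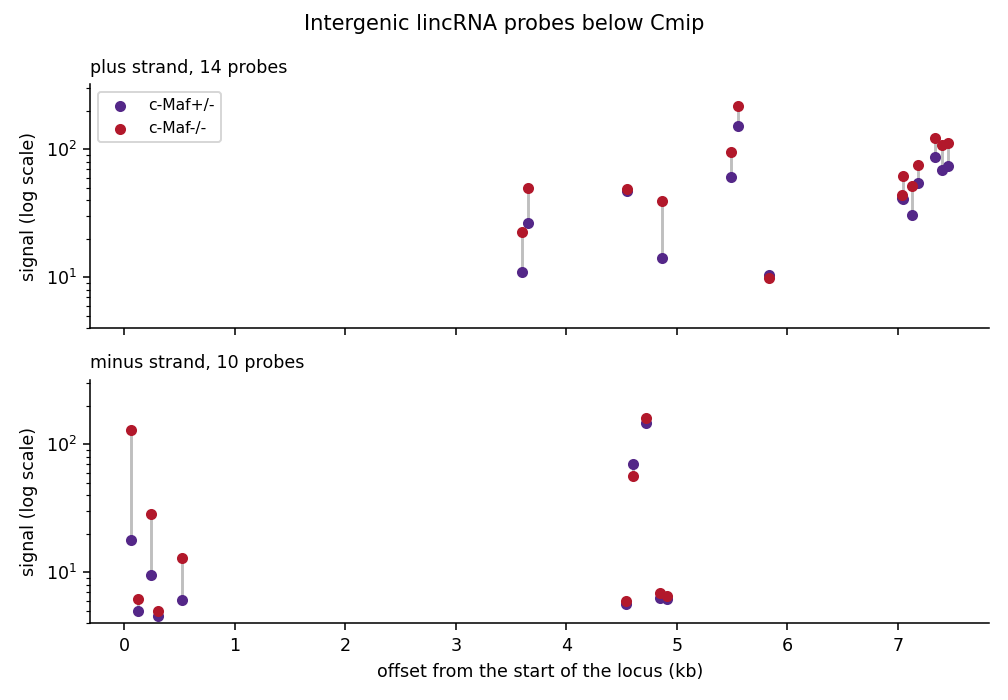
Signals (processed intensity, log scale) of the 24 lincRNA probes of the intergenic loci below Cmip by offset in kb from the start of the first locus, plus strand above and minus strand below, with a grey line joining the arrays for each probe. On the plus strand 11 measured probes were higher in c-Maf-/-, and on the minus strand most probes were near background.

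A second cluster sat beside Cdyl2, a chromodomain gene of the minus strand. Its 8 minus-strand probes, the nearest 4.55 kb from the Cdyl2 probe, were all measured and all below 0, from -0.42 to -0.11 (7 of 8 with spike-in scaling). The median was -0.27, beside -0.44 for Cdyl2 itself (275 and 206). A pair of the 8 shared 59 bases, so that they bind almost the same target. Of 5 plus-strand probes in the same locus, 2 were measured, at -0.10 and 0.07. Agreement within a locus was common: among 91 lincRNA names of the array with at least 5 measured probes, 13.2% had all of them above 0 and 29.7% all below, and with spike-in scaling 28.6% and 9.89%. The region held 2 such names, 1 of each kind.

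On 1 array only, 6 members had a bound of at least 2-fold toward c-Maf-/- and 3 toward c-Maf+/-. That is 1.69% and 0.845% of the 355 members flagged on at least 1 array, against 1.89% and 0.915% of all such probes and 2.47% and 0.791% on the rest of chromosome 8. Beside CB193388 and LOC102640236, the muscle cadherin Cdh15 was on the c-Maf+/- side, at 48.1 and 18.6. Toward c-Maf-/-, 5 of the 6 were lincRNA probes, which is 5.32% of the 94 flagged in the region, against 4.01% over the array. The remaining one was Pmfbp1, a gene of a sperm protein, at 5.29 and 73.8, at least 3.24-fold higher.

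The 4 of these lincRNA probes farther from Maf lay at 3 places. The probe at 124684059 read 6.01 and 166, at least 7.30-fold higher, while the next probe of its strand read 6.26 and 8.25 and the probe on the opposite strand at the same position 5.43 and 5.78. The probe at 122787789 read 4.97 and 134, at least 5.88-fold higher, between neighbours that read 52.0 and 52.6 on one side and 4.97 and 5.31 on the other. The remaining 2, at 124397508 on the minus strand and 124397799 on the plus strand of the same locus, read 9.17 and 49.7 and 6.52 and 47.3, both higher in c-Maf-/-. Each value came from 1 spot, and no second probe of the same strand repeated it.

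Promoters were searched for the Maf recognition core because Nudt7 and Osgin1 were both higher. Of 2 motifs searched on both strands, that core was the first. RefSeq promoters of build GRCm38.p6, from 250 bases before to 50 after each start, matched 192 member genes (226 promoters). The core TGCTGAC, on either strand, was in 3.98% of them and in 4.67% of all 32851 promoters. The 8 member genes were Acd, Klhdc4, Nudt7, Osgin1, Pard6a, Spg7, Wdr59 and Zfpm1. The 6 besides Nudt7 and Osgin1 had differences from -0.25 to 0.23, with Zfpm1 lowest and Pard6a highest. The 250 bases before a start are given for both genes, with the core or its reverse complement GTCAGCA in capitals.
Nudt7 promoter, chr8:114133368-114133617, plus strand: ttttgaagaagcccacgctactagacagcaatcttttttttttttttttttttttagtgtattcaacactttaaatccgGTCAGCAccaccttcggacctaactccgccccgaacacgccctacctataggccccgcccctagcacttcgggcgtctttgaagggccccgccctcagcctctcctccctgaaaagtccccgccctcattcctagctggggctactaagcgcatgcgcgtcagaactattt
Osgin1 promoter, chr8:119436897-119437146, plus strand: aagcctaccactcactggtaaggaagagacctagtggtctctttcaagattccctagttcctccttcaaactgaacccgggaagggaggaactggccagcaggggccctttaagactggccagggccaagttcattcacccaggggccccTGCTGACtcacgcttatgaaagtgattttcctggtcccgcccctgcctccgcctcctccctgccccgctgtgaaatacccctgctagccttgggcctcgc
A match is a match of letters and no evidence of binding. The antioxidant-response core TGACNNNGC, which overlaps the Maf core in some sites, was in 12.4% of member promoters and 12.4% of all. Osgin1 and Nudt7 were not among the 26 member genes that held it. Among the 26, Irf8 (-0.65), Fbxo31 (0.68) and Usp10 (0.48) differed most, and the other measured ones lay from -0.25 to 0.23. The motifs were chosen after the values were seen.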

How the data were processed

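One-colour arrays of 2 macrophage preparations were used. Per the file headers, the deposited intensities came from Agilent Feature Extraction 10.7.3.1 (protocol GE1_107_Sep09, design 028005), which subtracted background within an array and did not normalize between them. Per the labels, the Cy3 labelling started from 50 ng of RNA. Both arrays were on 1 slide.

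The log2 scale was computed here in Python 3.11.15 (pandas 2.3.3, numpy 2.4.6), as log2 of the processed signal minus the array's 75th percentile (signals of 291 and 296). Outlier spots (136 and 149) were dropped, spots of a probe averaged, and a gene's measured probes averaged. A probe well above background on 1 array got a bound against the lowest such signal on the other (22.3 for c-Maf+/-, 24.2 for c-Maf-/-) or its own, if higher. The number of arrays limits the precision. Positions are those of the files, build mm9, and no annotation of that build was used, and so no exon or UTR position is given. Names were updated through a RefSeq table by accession (300 members), symbol (32), other accession (3) or older symbol (3), and 327 kept the name in the files.

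The members, the 12 gene lists and the rules were chosen with earlier results of these data known. Genes were named if past 2-fold, among the 10 highest, lowest or brightest official symbols, near Maf, bounded at 2-fold or more, or with probes of opposite sign at least 0.5 apart, and Irf8, Osgin1, Nqo1, Plcg2 and Cyba were named whatever their value. List members named for context (such as Mlkl, Il34, Exosc6, Usp10, Ankrd11 and Map1lc3b), Txnl4b and Dhx38, and the locus beside Cdyl2 were chosen after their values were seen. Alternatives were spike-in, median, quantile and cyclic loess scaling, normexp (offset 50) in limma 3.58.1 (R 4.3.3), no background subtraction, other filters, thresholds, windows and probe rules. The scripts were tested on simulated data, with changes set only in probes with signals above 100 and the background flags copied between arrays. That test did not cover changes in dim probes, on which most of the 2-fold calls rest. The values of 1 neighbouring gene are not reported here.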

Additional observations from a re-analysis of the deposited data

How the results depend on the processing

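The 11 higher and 3 lower probes became 3 and 0 with normexp background (0.472% and 0.641% of all probes), 4 and 0 without background subtraction (0.602% and 0.771%), 44 and 40 with no filter on dim probes (5.34% and 4.99%), 2 and 1 in the brighter part of the measured probes (0.581% and 0.996%), and 25 and 9 at 1.5-fold, where 4.94% and 6.19% of all probes were past it. They were 14 and 1 with spike-in scaling (2.07% and 0.966%). For official symbols alone, a setting chosen after the values were seen, they were 6 and 1 (1.37% and 1.61%). Median scaling and quantile normalization gave 11 and 3, cyclic loess 12 and 3, and 1 value per gene 8 and 3. The region's median of -0.01 was 0.14 with spike-in scaling, where all probes had 0.12, and 0.066 with no filter, where all probes had 0.069. The range of bin medians, 0.46, was 0.28 with normexp, 0.30 without background subtraction, 0.068 with no filter and 0.90 in the brighter part, and between 0.44 and 0.48 under the other settings. The cause of these moves was not tested. Past 2-fold, only Hp and Osgin1 held under all 8 settings of scaling, background and filter, 6430548M08Rik held under 7 and Bcar1 under 6. The filter settings leave a probe's value unchanged. The brighter part also leaves out dim probes such as those of 6430548M08Rik and Bcar1, so this count partly follows brightness. The 22 and 18 members on 1 array only were as many when every spot had to carry the flag. No paired analysis was possible because each genotype had 1 array, which also left no replicate to leave out. Signals close to background limit most of the 2-fold calls.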
